A study of Homo sapiens with 6 samples.

Results

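The Krüppel-like factors (KLFs) are zinc finger transcription factors that bind GC-rich and CACCC-type DNA, and several of them hold lymphocytes in a resting state. The genes described here are KLF3, KLF4, KLF6, KLF7, KLF9, KLF10, KLF11, KLF12, KLF13 and KLF16. They were chosen by gene symbol, and all 10 were present among the 23250 genes of the read count table. KLF2 was not among the genes chosen.

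Transcripts were counted in OCI-LY1, a human line established from a lymphoma of mature B cells (diffuse large B cell type). In every sample the line's own BCL6, a transcriptional repressor that germinal centre B cells need, had been depleted with siRNA and BCL6 had been put back by ectopic expression. The RD2 mutant rescue received BCL6 mutated in RD2, a repression domain (3 libraries), and the WT rescue received wild-type BCL6 (3 libraries). No group without a rescue was used here. The amount of BCL6 protein in each rescue was not compared, so an effect of RD2 and a difference in the amount put back cannot be told apart. All libraries come from 1 cell line, and separate cultures are not stated in the labels, so the p-values cover differences between libraries that may be only technical.

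Family members share a DNA-binding end made of zinc fingers and differ in the rest of the protein, which recruits partners. KLF3 and KLF12, like KLF8, bind the corepressor CtBP. KLF9, KLF10, KLF11, KLF13 and KLF16 bind the SIN3 corepressor, and KLF4, KLF6 and KLF7 belong to the group known mainly as activators. In B cells, KLF4 is known as a FOXO target that limits proliferation in mice, and KLF4 and KLF9 transcripts are known to be lower in human memory B cells than in naive ones.

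The libraries held 26298456 to 26966183 counts in the RD2 mutant rescue and 26477404 to 27574867 in the WT rescue. At these depths 3 counts, used as the detection floor per library, correspond to 0.109 to 0.115 CPM (counts relative to the TMM-scaled library size), a limit for counting error alone. The B cell genes CD79A, CD79B, PAX5, CD22 and MS4A1 summed to 2704 to 2777 CPM in RD2 mutant rescue libraries and 3092 to 3131 CPM in WT rescue libraries. Within that sum the members went both ways: MS4A1, a surface protein gene of mature B cells, fell 5.43-fold (107 ± 4.001 against 583 ± 17.0 CPM, SD, n = 3 each; edgeR, adjusted p = 4.14e-22) and CD22 fell 1.38-fold, while CD79A, CD79B and PAX5 rose 1.06-fold, 1.15-fold and 1.195-fold. Their part in the results below was not tested. The 5 T cell genes summed to 3.15 to 3.84 CPM in the RD2 mutant rescue and 1.10 to 1.49 CPM in the WT rescue, nearly all of it CD28, while CD3E and CD2 were at 0. The 5 myeloid genes and the 5 fibroblast genes each stayed under 1 CPM in sum in every library.

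Promoter windows of 300 bases, 250 before and 50 after an annotated start, were taken from RefSeq (GRCh38.p14) and matched 8 of the 10 genes, all but KLF3 and KLF10, with 15 windows in all because KLF7, KLF11 and KLF12 have several starts. Windows of 4 genes are printed because they span the responses described below: KLF9 and KLF6 were higher in the mutant rescue, KLF13 was the most abundant member and did not pass the test, and KLF16 was lower. Capitals mark the CACCC-type motif CCNCNCCC on either strand, and each sequence runs 5′ to 3′ on the strand of its gene.
KLF9, chr9:70414608-70414907, minus strand: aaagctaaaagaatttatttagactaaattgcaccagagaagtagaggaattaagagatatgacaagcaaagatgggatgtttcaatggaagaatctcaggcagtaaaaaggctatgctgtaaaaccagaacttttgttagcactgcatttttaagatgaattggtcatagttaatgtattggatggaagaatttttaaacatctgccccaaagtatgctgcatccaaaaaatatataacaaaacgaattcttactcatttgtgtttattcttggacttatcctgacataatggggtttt
KLF6, chr10:3785160-3785459, minus strand: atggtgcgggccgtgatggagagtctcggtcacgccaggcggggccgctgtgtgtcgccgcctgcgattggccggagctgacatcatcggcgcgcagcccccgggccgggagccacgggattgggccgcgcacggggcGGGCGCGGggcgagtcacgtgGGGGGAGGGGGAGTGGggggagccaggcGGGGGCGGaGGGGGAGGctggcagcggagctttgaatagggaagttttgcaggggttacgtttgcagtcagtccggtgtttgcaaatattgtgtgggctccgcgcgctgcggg
KLF13, chr15:31326585-31326884, plus strand: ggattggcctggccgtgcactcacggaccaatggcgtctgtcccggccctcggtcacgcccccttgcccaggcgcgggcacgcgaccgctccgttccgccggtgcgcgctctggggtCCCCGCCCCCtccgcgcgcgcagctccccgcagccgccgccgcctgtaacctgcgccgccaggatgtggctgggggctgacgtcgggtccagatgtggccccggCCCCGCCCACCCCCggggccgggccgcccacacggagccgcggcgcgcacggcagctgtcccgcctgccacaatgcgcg
KLF16, chr19:1863530-1863829, minus strand: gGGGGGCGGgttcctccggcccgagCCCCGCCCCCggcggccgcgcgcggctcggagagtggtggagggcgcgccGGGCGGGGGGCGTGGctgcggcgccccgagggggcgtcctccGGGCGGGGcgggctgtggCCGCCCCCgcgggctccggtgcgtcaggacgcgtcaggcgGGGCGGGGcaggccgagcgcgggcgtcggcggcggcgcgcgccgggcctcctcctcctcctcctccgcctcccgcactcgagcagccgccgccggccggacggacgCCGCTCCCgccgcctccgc

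The windows differed widely in base composition. The KLF9 window was 32.7% G and C and held no CCNCNCCC match, whereas the KLF6, KLF13 and KLF16 windows were 70.7%, 78.3% and 86.0% G and C and held 6, 4 and 9 matches. Matches that share bases were counted separately, so a single run of capitals can hold several. The median over 35116 RefSeq windows was 58.7%. CCNCNCCC occurred in 12 of the 15 KLF windows and in 56.2% of all windows, and the GC box GGGCGG in 8 of 15 and in 45.0%. These motifs overlap each other: 2 of 6 matches in KLF6, 4 of 4 in KLF13 and 7 of 9 in KLF16 shared bases with a GC box. The BCL6 core TTCCTAGAA, searched on both strands, was in none of the 15 windows and in 0.373% of all windows. The wider TTCNNNGAA, which contains it, was in 1 of the 15, the KLF7 start farthest downstream, and in 7.66% of all windows. These matches describe letters within the windows only.

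Of the 10 genes, 8 passed the filter on low counts and were tested. In the RD2 mutant rescue 4 of them rose (KLF3, KLF9, KLF12 and KLF6), 1 fell (KLF16) and 3 did not pass the test (KLF10, KLF11 and KLF13). KLF3 and KLF9 were 2.005-fold and 1.804-fold higher, and the other calls were changes under 1.2-fold. Of all 12406 tested genes 70.1% were called, 35.4% higher and 34.8% lower (quasi-likelihood test of edgeR, p adjusted over all tested genes by Benjamini-Hochberg and under 0.05), so 5 calls among 8 genes is a share near the background. The median log2 fold change of the 8 tested genes was 0.13, against 0.01 over all tested genes. All log2 fold changes are RD2 mutant rescue minus WT rescue. In these bulk libraries fewer cells expressing a gene and less RNA per cell cannot be told apart.

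**Figure D1:**
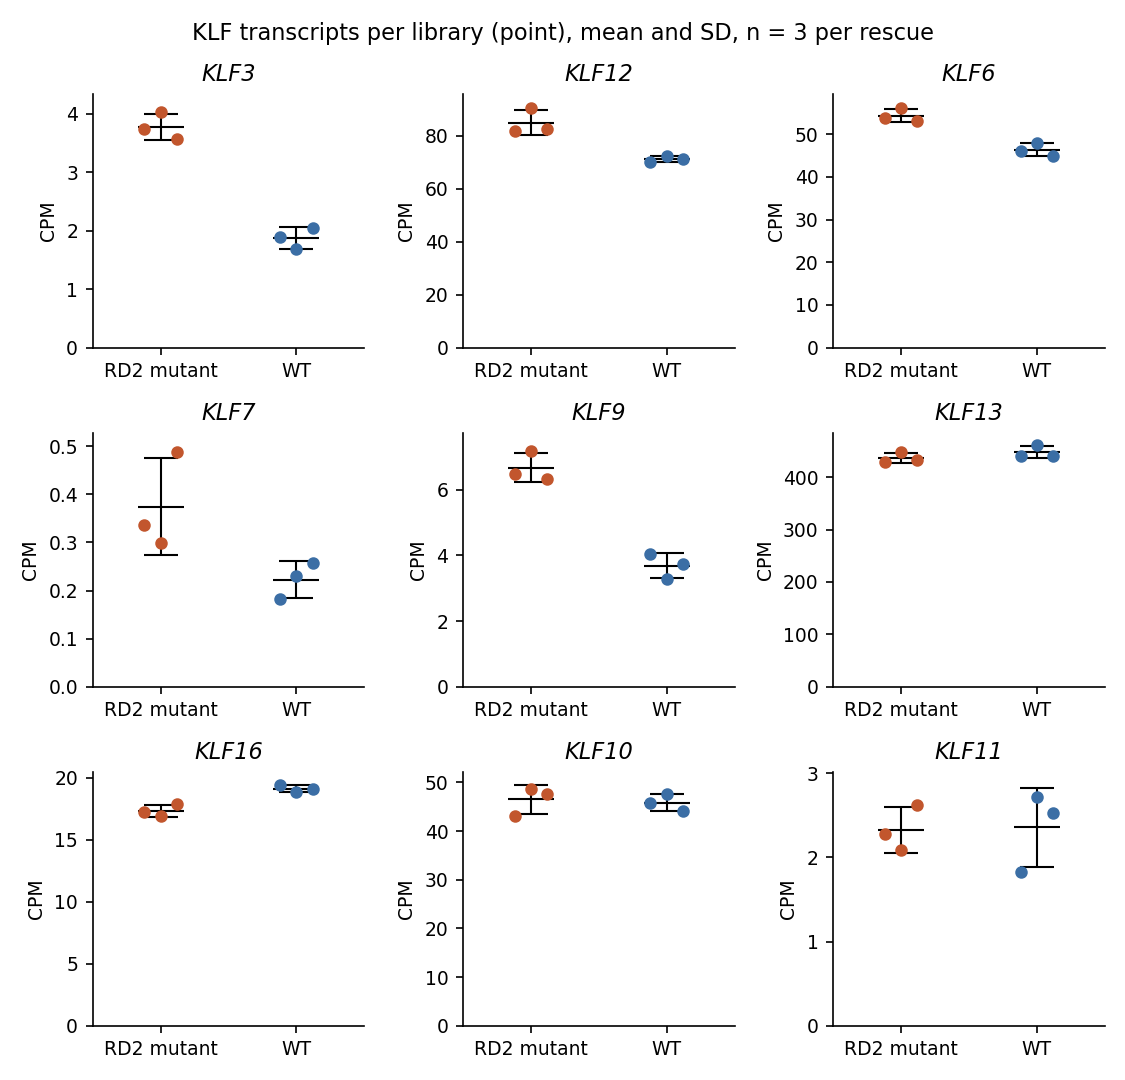
TMM-scaled CPM (vertical axis, from 0) of the 9 detected KLF genes, with 1 point per library, the RD2 mutant rescue left and the WT rescue right, and bars for the mean and SD of n = 3. The points of the rescues are apart for KLF3, KLF9, KLF12, KLF6, KLF16 and KLF7 and overlap for KLF10, KLF11 and KLF13. How often the rescues are apart over all genes was not counted, and 70.1% of all tested genes were called. KLF4 had 0 counts and is not drawn.

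The CtBP-binding members were both higher in the mutant rescue. KLF3 is a repressor that in mice takes part in B cell development. It had 100, 108 and 95 counts in the RD2 mutant rescue libraries, against 52, 44 and 56 in the WT rescue libraries. These are 3.73, 4.02 and 3.57 CPM in the mutant rescue and 1.90, 1.68 and 2.05 CPM in the WT rescue. Every mutant rescue library lay above every WT rescue library, at a low level in both. KLF3 was 2.005-fold higher (3.77 ± 0.230 against 1.88 ± 0.186 CPM, SD, n = 3 each; log2 fold change 1.00, SE 0.14; edgeR, adjusted p = 2.63e-06), a larger absolute change than in 90.6% of tested genes.

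KLF12, a repressor first described on the promoter of the AP-2 alpha gene TFAP2A, was far more abundant. It had 2193, 2424 and 2196 counts in the RD2 mutant rescue and 1917, 1884 and 1937 in the WT rescue. The groups did not overlap. In CPM, replicate 2 was the highest of the mutant rescue, as it was for KLF3, KLF6, KLF9, KLF10 and KLF13. KLF12 was 1.195-fold higher (84.9 ± 4.70 against 71.0 ± 1.09 CPM, SD, n = 3 each; log2 0.26, SE 0.042; edgeR, adjusted p = 1.62e-05). It was no longer called when the change had to exceed 1.2-fold (edgeR glmTreat, adjusted p = 0.545).

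Within a library, the ratio of KLF3 to KLF12 does not depend on the scaling of libraries. There were 4.56, 4.46 and 4.33 KLF3 counts per 100 KLF12 counts in the RD2 mutant rescue, against 2.71, 2.34 and 2.89 in the WT rescue. The ratios of the groups did not overlap, so the 2 relatives rose by unequal amounts.

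The group known mainly as activators was represented by 1 gene at a substantial level. KLF6, a widely expressed factor known as a tumour suppressor in several tissues, had 1442, 1507 and 1415 counts in the RD2 mutant rescue and 1265, 1252 and 1226 in the WT rescue. All mutant rescue libraries lay above all WT rescue libraries. KLF6 was 1.17-fold higher (54.4 ± 1.56 against 46.3 ± 1.49 CPM, SD, n = 3 each; log2 0.23, SE 0.044; edgeR, adjusted p = 9.57e-05), and it was not called against a minimum change of 1.2-fold (glmTreat, adjusted p = 0.828).

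KLF7, a close relative of KLF6 known from neurons, was just above the detection floor. It had 9, 8 and 13 counts in the RD2 mutant rescue and 5, 6 and 7 in the WT rescue. The counts of the groups did not overlap, but KLF7 was left out by the filter, and in a fit of all 17426 genes with any count it did not pass the test (log2 0.73; edgeR, adjusted p = 0.187). KLF4, the quiescence and pluripotency factor, had 0 counts in all 6 libraries. A count of 0 allows up to 3 counts, or 0.112 to 0.113 CPM in the mutant rescue and 0.109 to 0.115 CPM in the WT rescue.

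The SIN3-binding members split. KLF9, a factor induced by steroid and thyroid hormones, had 174, 193 and 169 counts in the RD2 mutant rescue, against 111, 86 and 102 in the WT rescue. These are 6.49, 7.19 and 6.35 CPM in the mutant rescue and 4.05, 3.29 and 3.74 CPM in the WT rescue, with no overlap. KLF9 was 1.804-fold higher (6.68 ± 0.449 against 3.69 ± 0.381 CPM, SD, n = 3 each; log2 0.85, SE 0.11; edgeR, adjusted p = 9.13e-07), and its absolute change exceeded that of 87.4% of tested genes.

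KLF13, a regulator of the chemokine gene CCL5 in T cells, was the most abundant member. It had 11483, 12039 and 11553 counts in the RD2 mutant rescue and 12093, 12040 and 12014 in the WT rescue. After scaling to 436.9 ± 10.3 CPM in the mutant rescue and 447 ± 11.5 CPM in the WT rescue (SD, n = 3 each) the groups overlapped. The log2 fold change was -0.03 with a 95% interval of -0.10 to 0.03 (edgeR, adjusted p = 0.336), which leaves room for a mutant level from 0.933 to 1.02 times that of the WT rescue.

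KLF16, known as a regulator of dopamine receptor genes, had 461, 455 and 476 counts in the RD2 mutant rescue and 532, 492 and 520 in the WT rescue. Every mutant rescue library lay below every WT rescue library. It was 1.102-fold lower (17.3 ± 0.483 against 19.1 ± 0.288 CPM, SD, n = 3 each; log2 -0.14, SE 0.061), at the edge of the threshold (edgeR, adjusted p = 0.0474). The call was lost in 10 of 15 alternatives, with adjusted p-values over all alternatives from 0.0375 to 1.00. Among them were library size scaling (0.101), DESeq2 (0.124) and leaving out any 1 library other than mutant rescue replicate 3 (0.0793 to 0.120).

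KLF10 and KLF11 are the TGF-beta inducible early genes. KLF10 had 1157, 1308 and 1268 counts in the RD2 mutant rescue and 1257, 1242 and 1202 in the WT rescue, and the groups overlapped. Its log2 fold change was 0.02 with a 95% interval of -0.08 to 0.13 (edgeR, adjusted p = 0.712). KLF11 was scarce, with 61, 56 and 70 counts in the RD2 mutant rescue and 50, 71 and 69 in the WT rescue. Its interval was wider, -0.37 to 0.34 around a log2 fold change of -0.01 (edgeR, adjusted p = 0.946), which leaves room for a mutant level from 0.774 to 1.27 times that of the WT rescue.

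**Figure D2:**
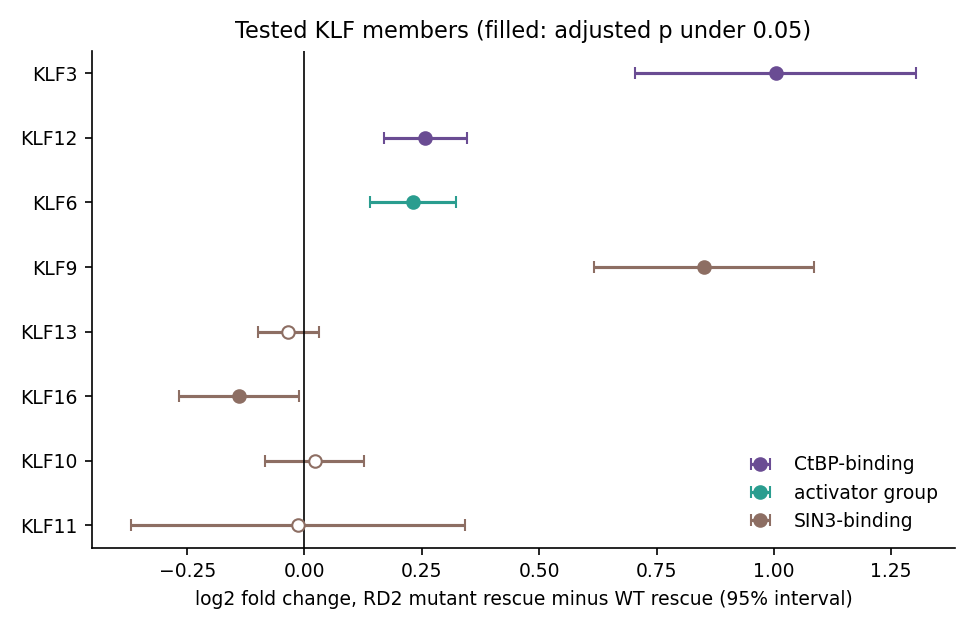
Log2 fold change, RD2 mutant rescue minus WT rescue (horizontal axis), of the 8 tested KLF genes with 95% intervals from the quasi-likelihood fit, coloured by known partner group, filled where the adjusted p was under 0.05. KLF3 (1.00) and KLF9 (0.85) stand apart to the right, KLF12 and KLF6 lie at 0.26 and 0.23, and the intervals of KLF10, KLF11 and KLF13 include 0.

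The close relatives KLF9, KLF13 and KLF16 thus had different values within the same libraries. There were 1.52, 1.603 and 1.46 KLF9 counts per 100 KLF13 counts in the RD2 mutant rescue, against 0.918, 0.714 and 0.849 in the WT rescue, with no overlap. Per 100 KLF16 counts there were 37.7, 42.4 and 35.5 KLF9 counts in the mutant rescue and 20.9, 17.5 and 19.6 in the WT rescue. KLF6 also rose against KLF13, with 12.6, 12.5 and 12.2 counts per 100 in the mutant rescue and 10.5, 10.4 and 10.2 in the WT rescue. The ratio of KLF16 to KLF13 overlapped between the groups (3.78 to 4.12 per 100 in the mutant rescue, 4.09 to 4.40 in the WT rescue).

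Levels were compared between genes as CPM per kilobase of the longest protein-coding GENCODE v29 transcript. KLF13 came first in both rescues, at 64.0 ± 1.51 CPM per kilobase in the RD2 mutant rescue and 65.6 ± 1.69 in the WT rescue (SD, n = 3 each). KLF10 followed at 12.7 ± 0.803 and 12.5 ± 0.472 in the mutant and WT rescue. KLF6 came next with 11.7 ± 0.336 in the mutant rescue and 9.95 ± 0.319 in the WT rescue, and its libraries overlapped those of KLF10 in the mutant rescue but not in the WT rescue. With the union of all exons as the length, KLF10 was at 11.6 ± 0.734 and KLF6 at 9.10 ± 0.261 in the mutant rescue, so that overlap rests on the transcript length used.

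KLF12 ranged from 7.69 to 8.49 CPM per kilobase in the RD2 mutant rescue and KLF16 from 5.86 to 6.19, so they did not overlap there. In the WT rescue KLF12 (6.57 to 6.78) and KLF16 (6.51 to 6.71) overlapped, but not with the union of all exons as the length (6.57 to 6.78 and 6.37 to 6.57). Below these, KLF9 was at 1.29 ± 0.0868 in the mutant rescue and 0.714 ± 0.0736 in the WT rescue, where its libraries overlapped those of KLF11, but not with the exon union (0.636 to 0.782 for KLF9, 0.397 to 0.592 for KLF11). KLF3 stood above KLF11 in the mutant rescue (0.697 to 0.785 against 0.517 to 0.652 CPM per kilobase) and below it in the WT rescue (0.329 to 0.401 against 0.452 to 0.674), with no overlap in either. KLF7 was at 0.0447 ± 0.012 in the mutant rescue and 0.0267 ± 0.0045 in the WT rescue.

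**Figure D3:**
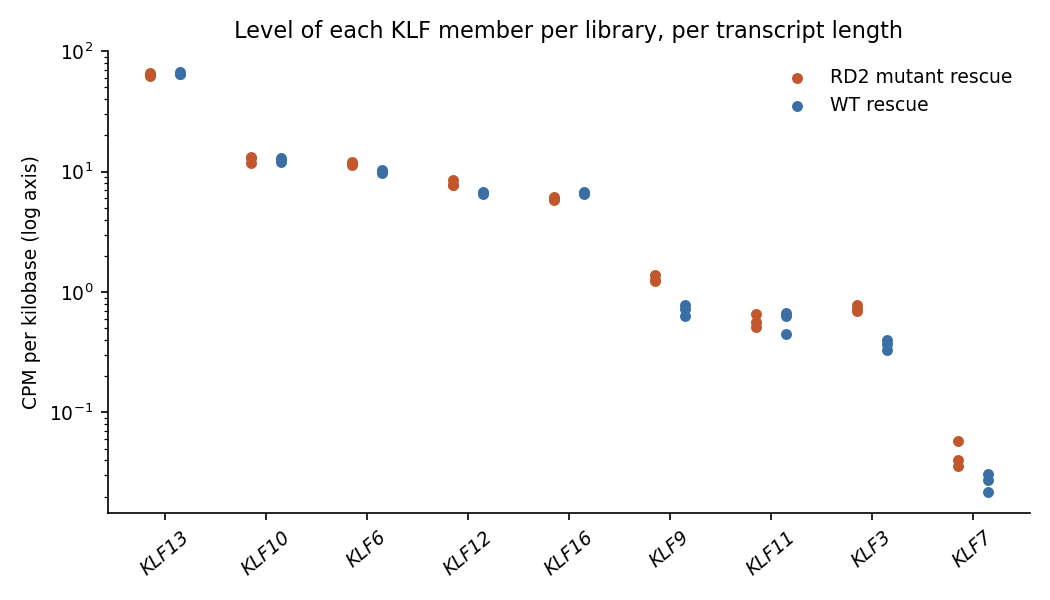
Level of 9 KLF genes in CPM per kilobase (vertical log axis), 1 point per library, with the RD2 mutant rescue left of the WT rescue for each gene, in the order of the WT rescue. KLF13 stays near 65 in both, while KLF3 lies above KLF11 in the mutant rescue only and below it in the WT rescue.

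Summed over the 10 genes, KLF transcript per length was 102 to 108 CPM per kilobase in RD2 mutant rescue libraries and 101 to 106 in WT rescue libraries, so the totals overlapped while the makeup differed. KLF13 made up 60.7% to 61.3% of this sum in the mutant rescue and 63.4% to 63.8% in the WT rescue. KLF6 made up 10.9% to 11.3% in the mutant rescue, against 9.53% to 9.73% in the WT rescue. KLF12 made up 7.41% to 7.85% and 6.41% to 6.59% in the mutant and WT rescue. KLF9 made up 1.17% to 1.28% in the mutant rescue and 0.601% to 0.767% in the WT rescue, and KLF3 0.666% to 0.726% and 0.311% to 0.396%. These shares carry no test, and a share of one gene can move because another does.

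Of the family members not chosen here, apart from KLF2, the table held KLF1, KLF5, KLF8, KLF14, KLF15 and KLF17, of which 2 were tested. KLF8, the remaining CtBP-binding member and a known target of repression by KLF3 in mice, had 76, 88 and 67 counts in the RD2 mutant rescue and 55, 37 and 53 in the WT rescue. It rose 1.603-fold (2.88 ± 0.382 against 1.79 ± 0.324 CPM, SD, n = 3 each; log2 0.68, SE 0.17; edgeR, adjusted p = 0.0013). KLF3, KLF8 and KLF12 were thus all called higher in the mutant rescue, as were 35.4% of all tested genes. The KLF12 call was lost against a 1.2-fold minimum. KLF5, a regulator of epithelial proliferation, is the tested gene before KLF12 in the order of starts on chromosome 13. KLF5 missed the threshold (6.45 ± 0.215 CPM in the mutant rescue, 6.82 ± 0.302 in the WT rescue; log2 -0.08; edgeR, adjusted p = 0.460). KLF1, KLF14, KLF15 and KLF17 had at most 11 counts in any library and were not tested. KLF15, with 2, 2 and 2 counts in the mutant rescue and 9, 7 and 6 in the WT rescue, passed in the fit with no filter (log2 -1.81; edgeR, adjusted p = 0.0127).

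Nearest tested neighbours were taken in RefSeq order of gene starts, with untested genes skipped and distance not considered. Those of KLF3 and KLF9 did not share the change, while those of KLF12 and KLF6 were mixed. Next to KLF12, TBC1D4 rose (log2 0.56) and KLF5 did not pass the test. Next to KLF6, NET1 rose (log2 0.11) and PITRM1 fell (log2 -0.43). In this order KLF3 stands between PTTG2 (log2 0.13; edgeR, adjusted p = 0.545) and TLR10, a Toll-like receptor gene that fell (log2 -1.36; edgeR, adjusted p = 5.79e-17). KLF9 stands between SMC5 (log2 -0.05; adjusted p = 0.238) and C9orf85 (log2 -0.07; adjusted p = 0.550), neither of which passed the edgeR test. GENCODE v29 places transcripts of the opposite strand over KLF3, KLF7, KLF11, KLF12 and KLF16, and none of these transcripts is a row of the table. Processed pseudogenes of KLF3, KLF4 and KLF7 also exist. Neither the strand setting nor the handling of shared reads is stated in the labels, so reads from these could stand under the KLF symbols. The exception is KLF4, which had 0 counts.

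The SP factors are the nearest relatives of the KLFs and compete for the same GC-rich sites. Of 9 listed, 4 were tested, and 3 rose and 1 fell, where 35.4% of all tested genes were higher and 34.8% lower. SP3 rose 1.31-fold, to 316 ± 12.2 CPM in the mutant rescue against 242 ± 11.1 in the WT rescue, and SP2 rose 1.30-fold (48.1 ± 1.31 against 37.0 ± 0.748 CPM; SD, n = 3 each). SP1, the family's general activator, fell 1.12-fold (172 ± 3.86 against 193 ± 4.25 CPM; log2 -0.16; edgeR, adjusted p = 2.19e-04), a call lost against a 1.2-fold minimum (glmTreat, adjusted p = 1.00). SP4, named after its values were seen, had a log2 fold change of 0.14.

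Partners of the CtBP-binding members were tested as 8 of 9 listed genes, of which 5 rose, 2 fell and 1 missed the threshold, with a median log2 fold change of 0.13. Of all tested genes 70.1% were called, 35.4% higher and 34.8% lower. CTBP2, one of the CtBP corepressors, had 101, 85 and 100 counts in the RD2 mutant rescue and 30, 22 and 32 in the WT rescue, with no overlap. It rose 3.42-fold (3.56 ± 0.345 against 1.04 ± 0.173 CPM, SD, n = 3 each; log2 1.77, SE 0.17; edgeR, adjusted p = 1.10e-08). CTBP1, its relative, was much more abundant (75.1 ± 5.18 CPM in the mutant rescue, 68.7 ± 1.10 in the WT rescue). It rose by 0.13 on the log2 scale (edgeR, adjusted p = 0.0165), with groups that overlapped. FHL1, a LIM domain protein gene, rose at a very low level, with 30, 24 and 26 counts in the mutant rescue and 6, 5 and 3 in the WT rescue. FHL3, a LIM protein known to bind KLF3, rose 2.21-fold (1.78 ± 0.148 against 0.800 ± 0.261 CPM). The histone demethylase gene KDM1A fell 1.18-fold, but not against a 1.2-fold minimum (glmTreat, adjusted p = 0.785). CTBP1 and FHL3 were named after their values were seen. With a minimum of 1 CPM in every library 3 of the listed genes rose, since scarce ones drop out there. Against a 1.2-fold minimum 3 rose and 0 fell, beside 2383 higher and 2202 lower among all 12406 tested genes.

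Of the SIN3 corepressor genes all 17 were tested, with 10 higher, 4 lower and 3 short of the threshold, with a median of 0.10, beside 35.4% higher and 34.8% lower among all tested genes. HDAC1, a histone deacetylase gene of the complex, fell 1.29-fold (494 ± 5.89 CPM in the mutant rescue, 639 ± 11.0 in the WT rescue). HDAC2, the other deacetylase gene listed and named after its values were seen, was called higher, though the groups overlapped. It had 194 ± 8.33 CPM in the mutant rescue and 184 ± 4.96 in the WT rescue (log2 0.08; edgeR, adjusted p = 0.0444). The reader subunit gene ING1 rose 1.39-fold and SAP30L 1.46-fold. The scaffold gene SIN3A, named after its values were seen, rose 1.09-fold (211 ± 5.78 against 193 ± 2.62 CPM). The 4 that fell became 2 without mutant rescue replicate 1, WT rescue replicate 2 or WT rescue replicate 3, and likewise under DESeq2, with library size scaling or with a minimum of 1 CPM in every library. Against a 1.2-fold minimum 4 rose and 1 fell, beside 2383 higher and 2202 lower among all 12406 tested genes.

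KLF10 and KLF11 are known as early targets of TGF-beta, so the genes of that pathway were set beside them. Among 15 tested, 7 were higher, 1 was lower and 7 missed the threshold, with a median of 0.12. These 8 calls among 15 are a smaller share than the 70.1% called among all tested genes, of which 35.4% were higher and 34.8% lower. The signal transducer SMAD3 rose 1.63-fold (279.5 ± 3.20 against 172 ± 3.15 CPM). The inhibitor SMAD7, a gene that KLF10 represses, rose 3.49-fold from a low level, with 140, 123 and 126 counts in the RD2 mutant rescue and 39, 32 and 41 in the WT rescue. LTBP1, which holds latent TGF-beta in the matrix, fell 1.34-fold (203 ± 8.27 against 272 ± 7.78 CPM). The count of 1 that fell became 4 without mutant rescue replicate 2 and 2 without WT rescue replicate 3, with the replicate block or with no filter. Against a 1.2-fold minimum 4 rose and 1 fell, beside 2383 higher and 2202 lower among all 12406 tested genes.

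Most listed genes known to hold lymphocytes at rest were higher. All 17 listed were tested, of which 13 rose, 3 fell and 1 missed the threshold, with a median log2 fold change of 0.32, beside 35.4% higher and 34.8% lower among all tested genes. The list was drawn up with earlier results of these data known and is no independent evidence of its direction. The cell cycle inhibitor gene CDKN1B rose 2.81-fold, TXNIP, a brake on glucose uptake, rose 1.56-fold (420 ± 14.6 against 268 ± 3.91 CPM), and FOXO1 rose 1.45-fold (504 ± 19.6 against 347 ± 7.52 CPM). ZBTB16, known with KLF4 and KLF9 to be lower in human memory B cells and named after its values were seen, had 1.54 ± 0.323 CPM in the mutant rescue and 0.335 ± 0.104 in the WT rescue, and rose by 2.19 on the log2 scale (SE 0.28; edgeR, adjusted p = 6.56e-07). BTG2, TSC2 and SLFN5, also named after their values were seen, fell. Against a 1.2-fold minimum 8 of the listed genes rose and 1 fell, beside 2383 higher and 2202 lower among all 12406 tested genes.

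Genes reported elsewhere as targets of KLF proteins moved both ways. Of 16 listed, 10 were tested, and 5 were higher, 3 lower and 2 short of the threshold, beside 35.4% higher and 34.8% lower among all tested genes. Their median log2 fold change was 0.05, but 0.23 to 0.37 without mutant rescue replicate 3 or any 1 of the WT rescue libraries, where 11 of them were tested, and 0.03 without mutant rescue replicate 2. CDKN1A, a target of KLF4 and KLF6, rose 1.76-fold and CCNB1, repressed by KLF4 in other cells, rose 1.47-fold. The integrin gene ITGB7, on which KLF2 and KLF3 are known to act in mouse lymphocytes, fell 1.81-fold (14.4 ± 0.953 against 26.02 ± 1.39 CPM). LGALS3, a gene repressed by KLF3 in mice and named after its values were seen, had 0.996 ± 0.205 CPM in the mutant rescue and 0.657 ± 0.0719 in the WT rescue (log2 0.60, SE 0.25; edgeR, adjusted p = 0.039). TFAP2A, the KLF12 target, did not pass the test (log2 -0.44, SE 0.29; edgeR, adjusted p = 0.183). CCL5, the KLF13 target, was at or near the detection floor and was not tested. With a minimum of 1 CPM in every library 3 of the listed genes rose and 3 fell. Against a 1.2-fold minimum 3 rose and 2 fell, beside 2383 higher and 2202 lower among all 12406 tested genes.

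**Figure D4:**
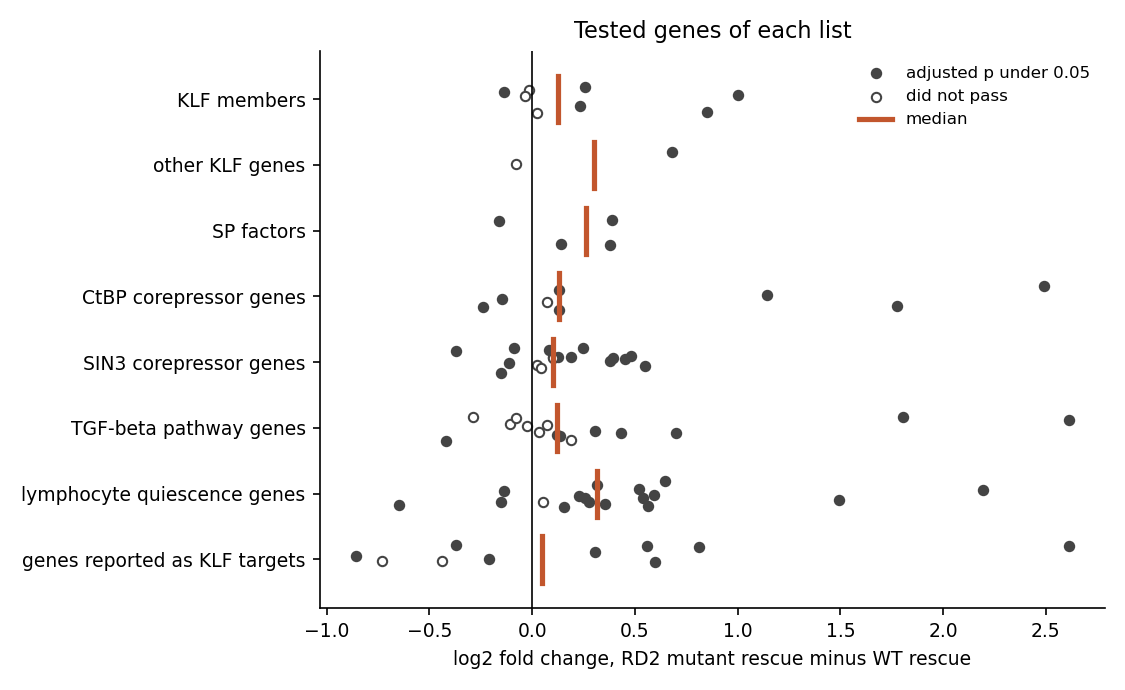
Log2 fold change, RD2 mutant rescue minus WT rescue (horizontal axis), of the tested genes of each list, filled where the adjusted p was under 0.05, with a bar at the list's median. Of the 17 quiescence genes 13 were called higher, while the reported KLF targets spread to both sides of 0, with 5 called higher and 3 lower.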

How the data were processed

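The file deposited by the authors holds raw counts of reads for each gene symbol, with 1 column per library and no pooling. The submitters' processing notes name build hg19 and the tools CASAVA 1.8.2, STAR and edgeR, while the counter, annotation and strand setting are not given there. The counts were analysed with edgeR 4.0.16 in R 4.3.3: filterByExpr at its defaults, TMM scaling, robust quasi-likelihood fit, glmQLFTest on all 6 libraries without covariates, Benjamini-Hochberg adjustment over 12406 tested genes, threshold 0.05. The SE is the log2 fold change divided by the square root of F, and intervals are 95%. Of 23250 genes 5824 had 0 counts throughout. The fit was checked on simulated counts. Alternatives were DESeq2 1.42.0, limma-voom (limma 3.58.1), scaling by RLE, by upper quartile or by library size, other filters, the replicate number as a block, glmTreat and leaving out each library. Replicate pairs differed by more than counting noise (chi-square per degree of freedom 1.60 to 5.47), most in the pairs with mutant rescue replicate 2 (5.47 and 4.36). All 10 members are described; of the other KLF genes all, and of each other list up to 3 tested genes with the smallest p, were named by rule, other names being marked. Members and lists were chosen with earlier results of these data known. Transcript lengths came from GENCODE v29, promoter windows and gene order from RefSeq GRCh38.p14, another build than that of the counts, so that no coordinate was tied to a count. A gene of the fixed lists is not reported here.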

Additional observations from a re-analysis of the deposited data

How the results depend on the processing

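The rises of KLF3 and KLF9 held in all 15 alternatives, with log2 fold changes of 0.938 to 1.076 and 0.78 to 0.92. Those of KLF6 and KLF12 held in all but glmTreat, with ranges of 0.21 to 0.26 and 0.21 to 0.28. Against a minimum change of 1.2-fold (glmTreat) 4585 genes were called, 2383 higher and 2202 lower, and of the KLF genes 2 were called, 2 higher and 0 lower. The count of KLF genes called lower was 0 with library size scaling, DESeq2, glmTreat, at least 1 CPM required in every library, and without a filter, and 0 to 1 when 1 library was left out. KLF10 and KLF11, which never passed the test, changed sign. KLF10 ranged from -0.014 to 0.0723 when 1 library was left out, and KLF11 from -0.17 to 0.10. KLF11 was 0.012 with library size scaling, 0.00076 with limma-voom and 0.0025 with a minimum of 1 CPM. The median of the other KLF genes was -0.95 with no filter, where 4 scarce genes enter. The scalings moved the median over all tested genes by under 0.1.

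With replicate number as a block, 9285 genes were called, and no KLF call changed. Whether the numbers pair the samples was not settled. Deviations of same-numbered libraries correlated at 0.196, 0.239 and -0.0719 for replicates 1, 2 and 3. In each rescue, replicates 1 and 2 correlated best with their own number, and replicate 3 did not. CPM per kilobase moved by more than 1 SD in 12 of 40 values with other transcript lengths. Of 210 recomputed counts of the other lists 22 moved by over 1.5 times, 9 of them under glmTreat. Of 105 recomputed medians 8 did so and 1 reversed, given above. The SP median was 0.13 with no filter, and that of the reported KLF targets 0.42 with no filter, 0.07 with library size scaling and 0.03 to 0.37 when 1 library was left out. KLF4 had no counts, and KLF7 entered only the fit with no filter.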
